A study of Mus musculus with 6 samples.

Results

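A set of 10 genes of axon-glia and nodal adhesion was followed in the sciatic nerve of mice, the large mixed nerve of the leg: Nrcam, Nfasc, Gldn, Cntn1, Cntn2, Cadm1, Cadm2, Cadm3, Cadm4 and Mpdz. They were chosen by name, and all 10 were found among the 24421 genes counted and stood among the 14789 genes tested. The tested nerves came from mice labelled YAP/TAZ-DBL-cKO (cKO, 3 libraries) and the controls from mice labelled YAP/TAZ-WT (WT, 3 libraries). The design text calls the controls wild-type mice. Yap1 and Wwtr1 encode YAP and TAZ, co-activators of transcription that the Hippo pathway restrains, and the series title links them to peripheral myelination and to Schwann cells. The labels and the design text leave unstated the age, sex and strain of the mice, what drives the deletion and in which cells, and whether nerves were pooled, so p-values measure the spread between these libraries.

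In a myelinated nerve, Schwann cells and the axon they wrap are held in register by pairs of adhesion molecules. At the node of Ranvier gliomedin (Gldn) and NrCAM on the Schwann cell side bind axonal neurofascin and gather sodium channels, at the paranode glial neurofascin binds contactin-1 and Caspr on the axon, and at the juxtaparanode contactin-2 holds potassium channels with Caspr2. Along the internode the nectin-like Cadm proteins join the Schwann cell to the axon, with Cadm4 on the Schwann cell and Cadm3 on the axon. The cell bodies of the axons lie outside the nerve, in ganglia and spinal cord, so transcripts read in nerve come mostly from Schwann cells and the other cells that live there.

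Gene counts came to between 24651262 and 32003497 in the cKO libraries and between 41270894 and 47044158 in the WT libraries. Levels are given in CPM, the counts of a gene relative to all gene counts of its library, scaled with the TMM factors of edgeR. Yap1 read 108.1, 108.8 and 102.6 CPM in cKO 1, 2 and 3, against 120.4, 123.7 and 121.7 CPM in WT 1, 2 and 3 (edgeR adjusted p = 0.145). Wwtr1 stood at 367.1, 337.4 and 372.0 CPM in the cKO libraries, against 275.5, 284.2 and 253.8 CPM in the WT libraries, and it was called higher (edgeR adjusted p = 0.0208; adjusted p = 0.117 without cKO 3, 0.0914 without WT 1, 0.0518 without WT 2 and 0.537 with the libraries scaled to equal Schwann lineage levels). A whole-gene count cannot show an exon lost in some cells only, so directions rest on the labels. The tissue label was checked against markers of nerve. Of 5 Schwann lineage markers, Sox10 among them, edgeR called 0, and 0 had an unadjusted p under 0.05 in edgeR or DESeq2, but their summed levels did not overlap, at 2637 to 2690 CPM in cKO and 2712 to 3262 CPM in WT libraries.

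Of the 10 genes, 7 fell and 1 rose in the cKO libraries. Gldn, Nfasc, Cntn1, Nrcam, Cadm3, Cadm4 and Mpdz were lower, Cadm2 was higher, and Cadm1 and Cntn2 did not pass the test (edgeR quasi-likelihood test over all genes, Benjamini-Hochberg adjusted p under 0.05). Over all tested genes 6.17% were called lower, 4.77% higher and 10.9% in either direction. The groups did not overlap for the same 7 lower genes and for Cadm2, a state met by 15.8% of all tested genes in the lower, 15.3% in the higher and 31.1% in either direction. The median log2 fold change, cKO over WT, was -0.94 over the 10 genes and 0.02 over all tested genes. The genes were chosen with earlier results of these data known, so these counts describe them. In RNA of whole nerve, fewer cells of a type and less RNA per cell cannot be told apart.

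**Figure D1:**
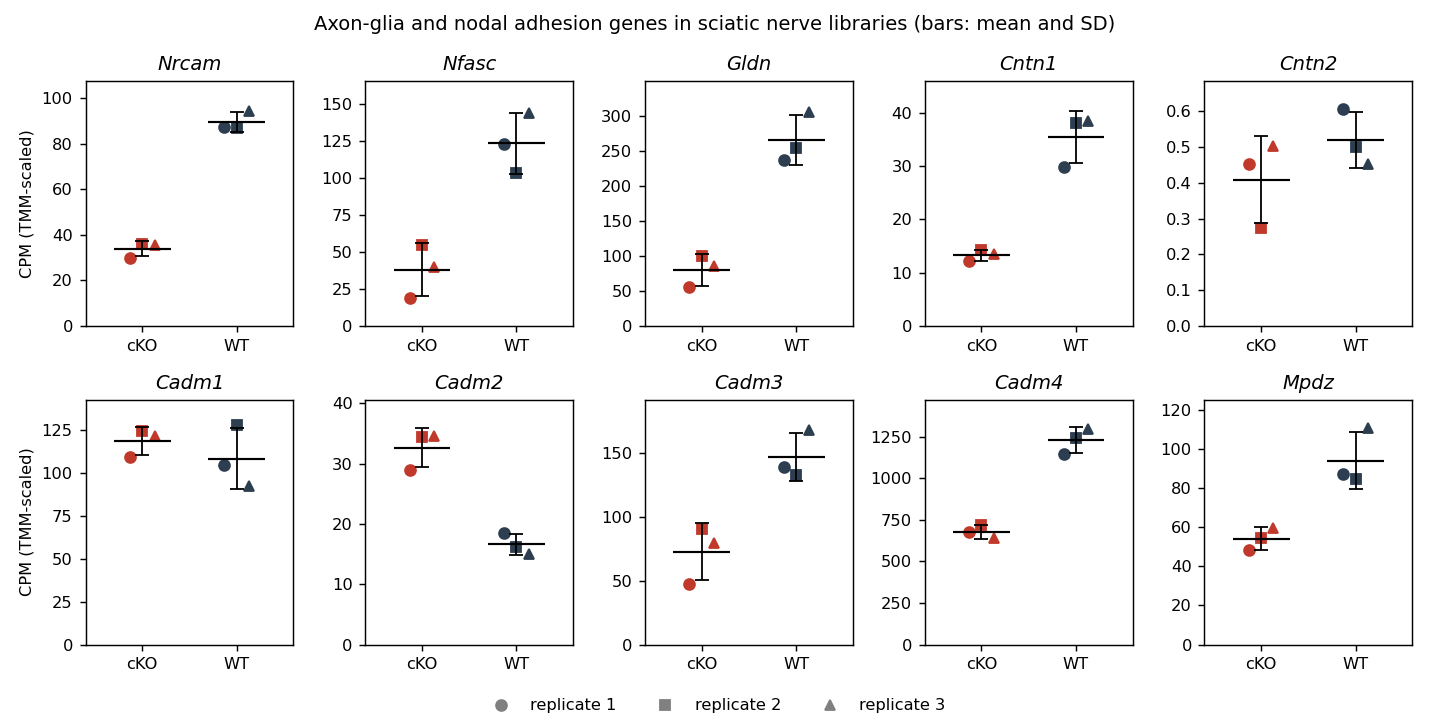
Level of each of the 10 genes in CPM (vertical axis, from 0, a scale of its own per gene) in the 3 cKO and the 3 WT libraries, 1 point per library, with mean and SD as bars. The cKO points lie below all WT points for 7 genes and above them for Cadm2, and the groups overlap for Cntn2 and Cadm1.

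Levels of different genes were compared per kilobase of exon, with the union of annotated exons as the length. In WT libraries Cadm4 was by far the most abundant, at 569.5 ± 35.4 CPM per kb (SD, n = 3), ahead of Gldn at 57.0 ± 7.66 CPM per kb and Cadm3 at 20.2 ± 2.60 CPM per kb. The ranges of Cadm1, Nfasc, Mpdz and Nrcam, the next in order, overlapped from one neighbour to the next in WT libraries, with mean levels between 6.71 and 10.4 CPM per kb. Cntn1 followed at 3.75 ± 0.523 CPM per kb, Cadm2 at 1.69 ± 0.180 CPM per kb and Cntn2 at 0.0559 ± 0.00839 CPM per kb. In cKO libraries Cadm4 again led, at 314.2 ± 19.2 CPM per kb, and Cntn2 was again the lowest, at 0.0440 ± 0.0130 CPM per kb. Between them the order differed. Cadm1 stood above Cadm3 in the cKO means, with overlapping ranges, and Cadm2, next to last in WT, stood at 3.33 ± 0.332 CPM per kb in cKO, above Nrcam at 2.54 ± 0.249 and Cntn1 at 1.41 ± 0.112 CPM per kb.

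Gliomedin and both of its L1 family partners were lower in cKO nerves. Gldn (mm10 chromosome 9, 54286486 to 54341786, plus strand) encodes gliomedin, a collagen and olfactomedin protein of Schwann cell microvilli that clusters sodium channels at the node. It stood at 55.3, 100.02 and 86.0 CPM in cKO 1, 2 and 3, against 236.8, 253.8 and 305.4 CPM in WT 1, 2 and 3. The highest cKO library lay 1.24 on the log2 scale below the lowest WT library, and cKO 1 was the lowest of all. The log2 fold change was -1.72 ± 0.20 (SE, n = 3 per group; edgeR adjusted p = 0.00135), a 3.30-fold fall.

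Nrcam (chromosome 12, 44328885 to 44601964, plus strand) encodes a cell adhesion molecule of the L1 family that binds gliomedin and neurofascin at the node. Its level was 30.1, 36.1 and 35.6 CPM in the cKO libraries and 87.3, 86.9 and 94.6 CPM in the WT libraries. Both groups were tight, with SDs of 3.33 and 4.33 CPM, and the gap between them was wider than either range. The log2 fold change was -1.40 ± 0.10 (edgeR adjusted p = 0.000192), the smallest p of the 10 genes.

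Nfasc (chromosome 1, 132564690 to 132741797, minus strand) encodes neurofascin, the other L1 family member of the node, made as a glial form of the paranode and an axonal form of the node. Counts over the whole gene do not separate the forms. Nfasc stood at 19.1, 54.8 and 40.1 CPM in cKO 1, 2 and 3, against 123.4, 103.3 and 144.5 CPM in WT 1, 2 and 3. All cKO libraries were below all WT libraries, but the cKO libraries spread widely among themselves, over 1.52 on the log2 scale against 0.26 for Nrcam. The log2 fold change of -1.71 ± 0.32 passed the test (edgeR adjusted p = 0.0101) but did not pass it without cKO 3 (log2 fold change -1.76, edgeR adjusted p = 0.0503). The 95% intervals of Nfasc, -2.42 to -0.99, and of Nrcam, -1.62 to -1.18, overlap. Within a library, Nrcam made up 62.5%, 41.1% and 48.5% of the summed Nrcam and Nfasc counts per kb in cKO 1, 2 and 3 and 42.8%, 47.1% and 40.9% in WT 1, 2 and 3. That share did not differ beyond the spread (exact two-sided permutation p = 0.4, where 0.1 is the smallest that 3 against 3 allows).

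Of the contactins, Cntn1 fell and Cntn2 was read at few counts in both groups. Cntn1 (chromosome 15, 92051165 to 92341967, plus strand) encodes contactin-1, the lipid-anchored partner of Caspr at the paranode. It stood at 12.1, 14.2 and 13.5 CPM in the cKO libraries, against 29.7, 38.0 and 38.5 CPM in the WT libraries. The highest cKO library lay 1.06 on the log2 scale below the lowest WT library. This was a 2.67-fold fall (-1.41 ± 0.13 on the log2 scale, edgeR adjusted p = 0.000606).

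Cntn2 (chromosome 1, 132509427 to 132543256, minus strand) encodes contactin-2, also called TAG-1, of the juxtaparanode. It held 15, 7 and 16 counts in cKO 1, 2 and 3 and 28, 20 and 18 counts in WT 1, 2 and 3, or 0.273 to 0.502 CPM across the cKO libraries and 0.454 to 0.606 CPM across the WT libraries. The groups overlapped, and the log2 fold change of -0.33 had a 95% interval of -1.32 to 0.66 (edgeR adjusted p = 0.715), so that neither a 2-fold fall nor no change lies outside it. Cntn2 and Nfasc are neighbours on the same strand, 21433 bp apart with 0 annotated genes between them. Cntn1 made up 96.4%, 98.1% and 96.4% of the counts per kb of both contactins in the cKO libraries and 98.0%, 98.7% and 98.8% in the WT libraries (exact two-sided permutation p = 0.2).

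**Figure D2:**
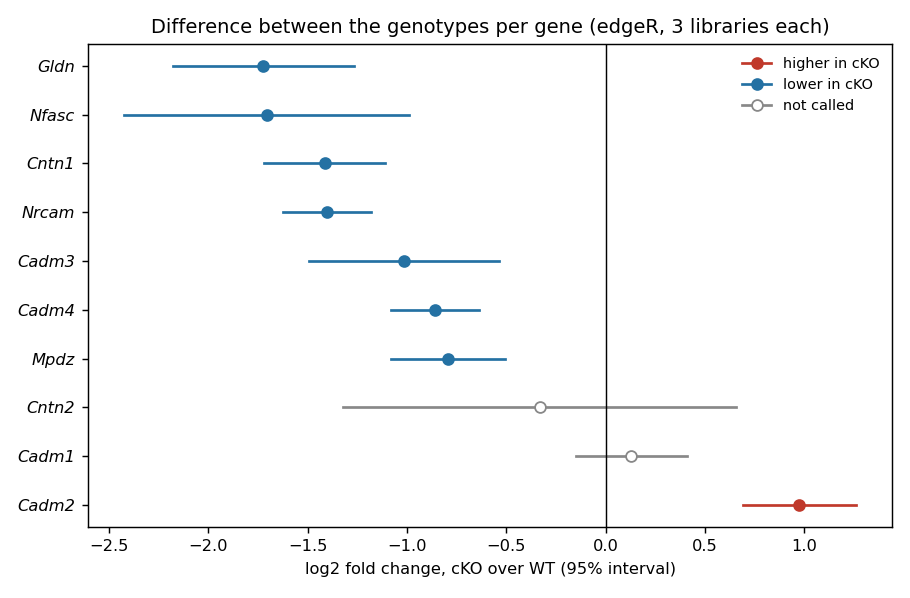
Log2 fold change of each gene, cKO over WT (horizontal axis), with its 95% interval from the edgeR fit on 3 libraries per group, the lowest at the top. The intervals of 7 genes lie below 0, that of Cadm2 lies above 0, and those of Cntn2 and Cadm1 cross it.

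The Cadm family moved in both directions. Cadm4 (chromosome 7, 24482023 to 24504539, plus strand), the nectin-like protein of the Schwann cell side of the internode, stood at 675.2, 722.3 and 639.4 CPM in the cKO libraries, against 1149, 1243 and 1300 CPM in the WT libraries. The groups were far apart and each was tight. This was a 1.81-fold fall (-0.86 ± 0.10 on the log2 scale, edgeR adjusted p = 0.00116).

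Cadm3 (chromosome 1, 173333258 to 173367695, minus strand), known as the axonal partner of Cadm4, stood at 47.6, 90.7 and 79.7 CPM in cKO 1, 2 and 3, against 139.2, 132.8 and 168.1 CPM in WT 1, 2 and 3. As with Gldn and Nfasc, cKO 1 was the lowest library and cKO 2 the highest of its group. The fall of 2.02-fold (-1.02 ± 0.21 on the log2 scale, edgeR adjusted p = 0.0162) no longer passed without cKO 3 (log2 fold change -1.10, edgeR adjusted p = 0.0563). Exons of Cadm3 share 361 bp with Ackr1, a chemokine-binding receptor of endothelial and red blood cells on the same strand, which stood at 11.4 to 12.4 CPM in cKO and 11.9 to 19.7 CPM in WT libraries.

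Cadm2 (chromosome 16, 66655421 to 67620908, minus strand), a family member best known from neurons, was the only one of the 10 genes called higher. It stood at 28.9, 34.5 and 34.5 CPM in the cKO libraries, against 18.5, 16.2 and 15.0 CPM in the WT libraries. Every cKO library was above every WT library, by at least 0.64 on the log2 scale. The log2 fold change was 0.97 ± 0.13 (edgeR adjusted p = 0.00217), a 1.96-fold rise whose call survived the loss of any 1 of the 6 libraries. Of its 9809 bp of exon, 256 bp are shared with an antisense transcript. Of 8 tested neuronal markers edgeR and DESeq2 each called 0 (2 higher at an unadjusted p under 0.05 in edgeR, 1 in DESeq2), with summed levels of all 10 of 89.3 to 122.0 CPM in cKO and 85.2 to 99.2 CPM in WT libraries, and none of the 10 was at 0 in all libraries. Their part in the result was not tested.

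Cadm1 (chromosome 9, 47530173 to 47857637, plus strand), which is made by Schwann cells and by neurons, stood at 109.7, 124.9 and 121.7 CPM in the cKO libraries, against 104.8, 128.2 and 92.7 CPM in the WT libraries. The groups overlapped. The log2 fold change of 0.13 ± 0.12 did not pass (edgeR adjusted p = 0.59), and its 95% interval of -0.15 to 0.41 excludes falls of the size seen for Cadm3 and Cadm4.

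Shares within a library do not depend on the scaling between libraries. Of the summed Cadm counts per kb, Cadm2 made up 0.886%, 0.971% and 1.09% in cKO 1, 2 and 3 and 0.336%, 0.273% and 0.241% in WT 1, 2 and 3. Cadm1 made up 3.16%, 3.30% and 3.62% in the cKO libraries and 1.78%, 2.02% and 1.40% in the WT libraries. Both shares were higher in every cKO library than in any WT library, while the share of Cadm4 was lower in every one, at 91.9% to 94.0% in cKO and 94.5% to 94.7% in WT libraries. The share of Cadm3 overlapped between the groups, at 1.97% to 3.45% in cKO and 3.02% to 3.65% in WT libraries. The exact two-sided permutation p was 0.1 for the first 3 shares, the smallest that 3 against 3 allows, and 0.7 for Cadm3. Adjusted over the 6 shares computed, the permutation p was 0.2 for each of those 3. With 0.1 as the smallest p, no share could have come under 0.05, so this test cannot decide. Summed over the family, Cadm transcripts stood at 338.9 ± 20.8 CPM per kb in cKO and 601.8 ± 36.6 CPM per kb in WT libraries (SD, n = 3 each; exact two-sided permutation p = 0.1).

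**Figure D3:**
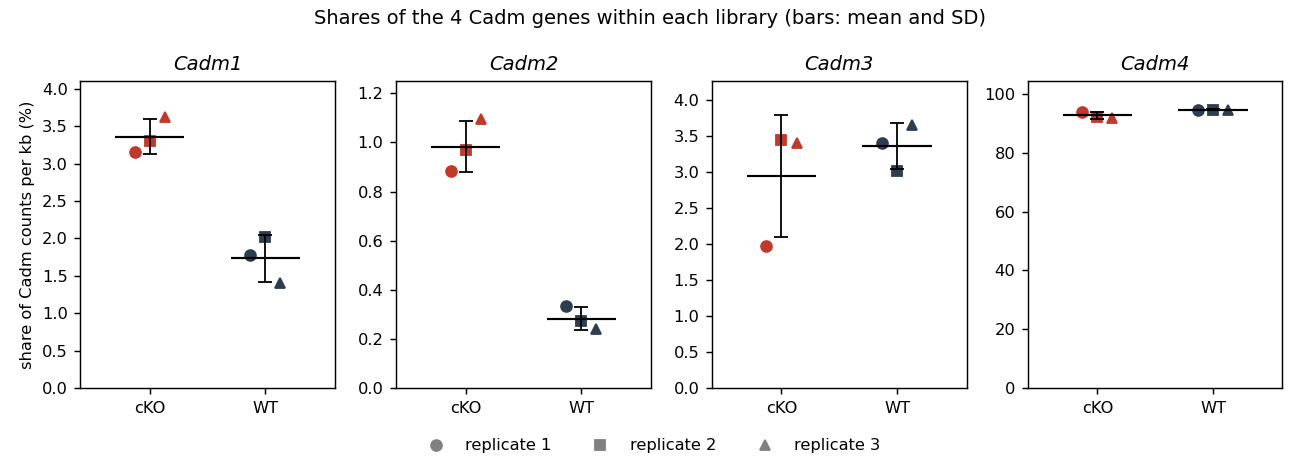
Share of each Cadm gene in the summed Cadm counts per kb of a library, in percent (vertical axis, from 0, a scale of its own per gene), 1 point per library with mean and SD as bars, for 3 cKO and 3 WT libraries. The shares of Cadm1 and Cadm2 are higher in all cKO libraries, that of Cadm4 is slightly lower, and that of Cadm3 overlaps.

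Mpdz (chromosome 4, 81278500 to 81442815, minus strand) encodes MUPP1, a scaffold with many PDZ domains that gathers membrane proteins at junctions. It stood at 48.3, 54.6 and 59.6 CPM in the cKO libraries, against 87.0, 84.4 and 110.8 CPM in the WT libraries. The groups did not overlap. The fall was 1.74-fold (-0.80 ± 0.13 on the log2 scale, edgeR adjusted p = 0.00529), the smallest among the 7 genes that fell.

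Sequences upstream of 4 of the genes are shown because the Cadm genes moved in different directions and Nrcam had the smallest p. They are the 250 bases before the RefSeq gene start (GRCm38.p6), 5′ to 3′ in the direction of the gene, with capitals for the core of the TEAD motif, GGAATG, the site through which YAP and TAZ bind DNA with TEAD factors. RefSeq windows were found for 8 of the 10 genes, 11 windows in all, and not for Cadm1 and Mpdz.
Cadm2, chr16:67620909-67621158, minus strand: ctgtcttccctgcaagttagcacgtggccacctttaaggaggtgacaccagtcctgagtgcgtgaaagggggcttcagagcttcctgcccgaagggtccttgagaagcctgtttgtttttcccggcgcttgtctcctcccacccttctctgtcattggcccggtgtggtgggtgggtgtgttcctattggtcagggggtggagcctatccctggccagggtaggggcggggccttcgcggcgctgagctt
Cadm3, chr1:173367696-173367945, minus strand: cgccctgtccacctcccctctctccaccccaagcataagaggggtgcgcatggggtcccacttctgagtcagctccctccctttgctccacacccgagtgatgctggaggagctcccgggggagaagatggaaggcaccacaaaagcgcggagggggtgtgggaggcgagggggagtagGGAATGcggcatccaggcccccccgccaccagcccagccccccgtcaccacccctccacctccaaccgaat
Cadm4, chr7:24481773-24482022, plus strand: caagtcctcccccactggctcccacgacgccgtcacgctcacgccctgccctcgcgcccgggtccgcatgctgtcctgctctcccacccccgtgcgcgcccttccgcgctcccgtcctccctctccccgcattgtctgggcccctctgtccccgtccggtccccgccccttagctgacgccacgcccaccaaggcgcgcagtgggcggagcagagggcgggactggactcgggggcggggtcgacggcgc
Nrcam, chr12:44328635-44328884, plus strand: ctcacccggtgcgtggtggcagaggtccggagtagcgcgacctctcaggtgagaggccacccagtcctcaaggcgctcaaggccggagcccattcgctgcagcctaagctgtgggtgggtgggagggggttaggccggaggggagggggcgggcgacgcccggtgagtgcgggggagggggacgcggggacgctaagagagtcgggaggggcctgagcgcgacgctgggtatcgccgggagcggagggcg
On either strand, GGAATG stood in 1 of the 11 windows, that of Cadm3 (71 bases before the start), and in 12.6% of 32817 mouse promoter windows of the same length. Cores of the SOX motif (ACAAAG) and the EGR motif (GCGTGGG), searched on both strands because SOX10 and EGR2 drive myelin genes, stood in 0 of the 11 windows, against 16.5% and 4.31% of all windows. With 1 match in all, no matches overlap. The GC content was 60.8% for Cadm2, 66.8% for Cadm3, 75.2% for Cadm4 and 72.4% for Nrcam. A match is a run of letters and not a site, and enhancers were not searched.

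Other transcripts moved with the same groups. Markers of myelinating Schwann cells were lower for 5 of 5 genes, with summed levels of 18362 to 30822 CPM in cKO and 76022 to 107995 CPM in WT libraries. Within the cKO group their sum was lowest in cKO 1 (18362 CPM), then cKO 3 (24230 CPM) and cKO 2 (30822 CPM). Gldn, Nfasc, Cadm3, Nrcam, Cntn1 and the uncalled Cadm1 had the same order, and Cntn2, Cadm2, Cadm4 and Mpdz did not. The share of all tested genes with that order was not computed, so the match only describes these genes. Markers of nonmyelinating Schwann cells were lower for 3 of 4 genes (136.7 to 181.0 CPM in cKO, 337.4 to 345.4 CPM in WT). Skeletal muscle markers such as Acta1 and Mylpf were higher for 11 of 12 genes, at 3549 to 8189 CPM in cKO and 357.6 to 1379 CPM in WT libraries, and 0 were absent from all libraries. Within the cKO group the muscle sum was 3549 CPM in cKO 1, 8189 CPM in cKO 2 and 4788 CPM in cKO 3, which is that order too. Mast cell markers were called higher for 2 of 4 tested genes by edgeR, where all 4 had an unadjusted p under 0.05, and for 4 of 4 by DESeq2, with sums of 99.5 to 218.2 CPM in cKO and 68.5 to 90.5 CPM in WT. For fibroblasts, perineurial cells, endothelial cells, macrophages and adipocytes edgeR called 0 markers and the sums overlapped between the groups. For adipocytes the overlap came from WT 3: the sum was 301.0, 326.4 and 415.4 CPM in cKO 1, 2 and 3, against 91.2, 88.0 and 402.7 CPM in WT 1, 2 and 3, and limma had 3 of 4 adipocyte markers higher at an unadjusted p under 0.05. At an unadjusted p under 0.05 edgeR had 1 perineurial, 2 endothelial and 1 macrophage marker higher, and DESeq2 called 1 perineurial marker higher. The part of these cells in the results was not tested.

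When the level of muscle markers was entered as a covariate in edgeR, 1 of the 10 genes was called lower and 0 higher. Over all tested genes that fit called 48 lower and 6 higher. The muscle sums did not overlap between the groups, so the fit cannot tell muscle from genotype. Nrcam kept its call (log2 fold change -1.60 ± 0.21, edgeR adjusted p = 0.0347). The 8 genes called without the covariate all kept their sign and an unadjusted p under 0.05, while their SEs went up to between 0.21 and 0.53 and adjusted p-values reached 0.417, that of Cadm2 (log2 fold change 0.74). The other log2 fold changes in that fit were -2.90 for Nfasc, -2.25 for Gldn, -1.72 for Cadm3, -1.31 for Cntn1, -1.10 for Mpdz and -0.86 for Cadm4. When the libraries were scaled instead to equal levels of the Schwann lineage genes Sox10, Erbb3 and S100b, the same 8 genes were called, with log2 fold changes of -1.84 for Nfasc and Gldn, -1.50 for Cntn1, -1.48 for Nrcam, -1.13 for Cadm3, -0.92 for Cadm4, -0.88 for Mpdz and 0.91 for Cadm2. Over all 14789 tested genes that scaling called 550 lower and 476 higher. It rests on few genes, and Erbb3 varied within groups, at 61.6 to 154.0 CPM in cKO and 76.2 to 169.0 CPM in WT libraries.

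Among 76 other tested genes of the axon-glia unit, in 6 lists, 15 fell and 4 rose, with a median log2 fold change of -0.06 (11 lower and 8 higher with total counts in place of TMM scaling). Over the 76, 19.7% fell and 5.26% rose, against 6.17% and 4.77% of all tested genes. The counts of each list below are to be read beside those shares of all genes. Of 9 tested relatives in the contactin, Caspr, L1 and NCAM families, edgeR and DESeq2 each called 0, with 1 lower and 2 higher at an unadjusted p under 0.05 in both. Cntnap1, which encodes the axonal paranode protein Caspr, averaged 5.09 ± 0.619 CPM in cKO and 4.12 ± 0.881 CPM in WT libraries (SD, n = 3 each), and did not pass the test (edgeR adjusted p = 0.473). Cntnap2, which encodes Caspr2, averaged 1.08 ± 0.651 CPM in cKO and 0.340 ± 0.244 CPM in WT libraries (edgeR adjusted p = 0.204). Ncam1 averaged 190.9 ± 6.67 CPM in cKO and 139.5 ± 37.2 CPM in WT libraries (log2 fold change 0.45 ± 0.17, edgeR adjusted p = 0.145; 0.23 without WT 3). Ncam2, a neural cell adhesion molecule, read 4.16, 7.01 and 5.78 CPM in cKO 1, 2 and 3, against 10.3, 10.6 and 5.87 CPM in WT 1, 2 and 3, with overlapping groups (log2 fold change -0.66 ± 0.27, edgeR adjusted p = 0.172). Without WT 3 it was called lower (-0.92 ± 0.21, edgeR adjusted p = 0.0225). When the muscle level entered the fit, 2 of the 76 genes were called lower, Gjb1 and Scn3b, and 0 higher.

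Among 13 genes of nectins and of the junctions between the wraps of one Schwann cell, with Mag, 5 fell and 0 rose (edgeR). At an unadjusted p under 0.05, 7 were lower and 0 higher in edgeR. DESeq2 called 7 lower and 0 higher of the 13, and 1257 lower and 997 higher of all 14789 tested genes. Gjb1, which encodes the gap junction protein connexin 32, averaged 18.0 ± 3.00 CPM in cKO and 81.3 ± 14.3 CPM in WT libraries (log2 fold change -2.18 ± 0.16, edgeR adjusted p = 0.000204). Mag, the myelin-associated glycoprotein of the inner wrap, averaged 212.5 ± 40.8 CPM in cKO and 650.3 ± 47.1 CPM in WT libraries (edgeR adjusted p = 0.000441). The tight junction gene Cldn19 and the connexin gene Gjc3 fell by 0.97 and 0.71 on the log2 scale (edgeR adjusted p = 0.00258 and 0.00615), and the fifth gene was Cdh1, which encodes E-cadherin. The groups did not overlap for any of these 5 genes, and none of them is a nectin.

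Of 10 tested genes of the membrane skeleton, 2 fell and 1 rose. Epb4.1l2, which encodes the 4.1G protein that links Cadm4 to the cytoskeleton, averaged 514.4 ± 53.6 CPM in cKO and 1029 ± 116 CPM in WT libraries (edgeR adjusted p = 0.00148). Ank3, which encodes the ankyrin G of the axonal node, averaged 82.1 ± 8.68 CPM in cKO and 143.1 ± 13.9 CPM in WT libraries (edgeR adjusted p = 0.00279). Epb4.1l3, which encodes the related 4.1B protein of the axonal paranode, averaged 134.3 ± 14.1 CPM in cKO and 157.5 ± 26.8 CPM in WT libraries and did not pass (edgeR adjusted p = 0.344). Ank1, an ankyrin also made by muscle, was called higher, at 18.3, 37.9 and 24.5 CPM in the cKO libraries and at most 8.61 CPM in the WT libraries (edgeR adjusted p = 0.0157). That call was lost without cKO 2 (adjusted p = 0.0546) or cKO 3 (adjusted p = 0.0563), and the log2 fold change of Ank1 was -0.18 in the fit with the muscle covariate.

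Of 11 tested channel genes, 2 fell and 1 rose. Scn3b, a sodium channel beta subunit, averaged 23.8 ± 4.40 CPM in cKO and 92.1 ± 18.4 CPM in WT libraries (log2 fold change -1.95 ± 0.17, edgeR adjusted p = 0.000452). The sodium channel gene Scn9a, at 1.44 ± 0.358 CPM in cKO and 3.56 ± 0.299 CPM in WT libraries, fell (edgeR adjusted p = 0.0166; 0.0600 without WT 2). Kcna2, a potassium channel of the juxtaparanode, stood at 196.7 ± 38.2 CPM in cKO and 279.9 ± 18.0 CPM in WT libraries. Its groups did not overlap, and it just missed the threshold (edgeR adjusted p = 0.0501). DESeq2 and limma called it lower (adjusted p = 0.00388 and 0.0439). In edgeR it was not called with total counts (adjusted p = 0.106) or without cKO 3 (0.129).

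Of 11 tested genes of the microvilli and perinodal matrix, 2 fell and 1 rose. Rdx and Slc9a3r1, which encode radixin and EBP50 of the microvilli, fell by 0.43 and 0.53 on the log2 scale (edgeR adjusted p = 0.0128 and 0.0171). The Rdx call was lost without cKO 3 or WT 2 (adjusted p = 0.0756 and 0.0569), and the Slc9a3r1 call without cKO 2, cKO 3 or WT 2 (adjusted p = 0.0667, 0.0924 and 0.0659). Vcan, which encodes the matrix proteoglycan versican, rose by 0.51 (edgeR adjusted p = 0.0373), a call lost without cKO 1, cKO 3, WT 1 or WT 2 (adjusted p = 0.0951, 0.171, 0.111 and 0.129). Scaled to equal Schwann lineage levels, Rdx, Slc9a3r1 and Vcan also lost their calls (edgeR adjusted p = 0.258, 0.134 and 0.306), as did Rdx and Slc9a3r1 with total counts (0.0624 and 0.0574). Of 22 tested scaffolds of junctions and cell polarity, the class of Mpdz, 4 fell and 1 rose. Lin7a, a PDZ adaptor, was the one that rose, at 5.81 ± 0.783 CPM in cKO and 1.81 ± 0.0667 CPM in WT libraries (edgeR adjusted p = 0.00205). Pard6b and Lin7c were among the 4 that fell (edgeR adjusted p = 0.0145 and 0.0190), but the Pard6b call was lost without cKO 3 (adjusted p = 0.0710) and the Lin7c call without cKO 2, cKO 3 or WT 2 (adjusted p = 0.0725, 0.0777 and 0.0756), with the Schwann lineage scaling (0.321) or with total counts (0.0822).

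**Figure D4:**
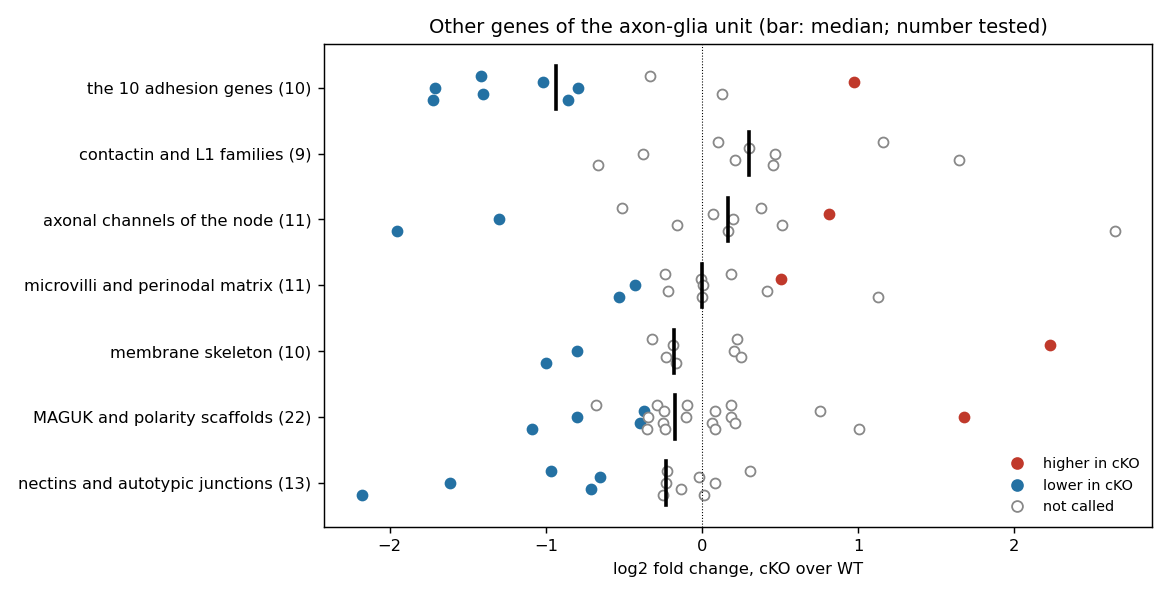
Log2 fold change, cKO over WT (horizontal axis), of the 10 adhesion genes in the top row and of the other tested genes of the axon-glia unit in 6 lists below, 1 point per gene, coloured by its edgeR call on 3 libraries per group, with a bar at each median. Of the 76 other genes 15 were lower and 4 higher, and the list of nectins and autotypic junctions has 5 lower and 0 higher. Over all tested genes 6.17% were lower and 4.77% higher.

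Likeness to the 8 called genes was measured as the root mean square difference of centred log2 CPM over the 6 libraries, among 10035 other tested genes. The nearest profile to Nrcam was that of Tiparp (0.0437 on the log2 scale), and the nearest to Cadm4 was that of Dhcr7 (0.0455). Nsdhl stood nearest to Cntn1 (0.0579), Sc5d to Gldn (0.0922), Ssfa2 to Mpdz (0.0575) and St6gal1 to Cadm3 (0.0757). Nfasc, with its wide cKO spread, had no profile nearer than that of Chp2 (0.130). The nearest to Cadm2, the gene that rose, was Ston2 (0.0664). Dhcr7, Nsdhl and Sc5d encode enzymes of cholesterol synthesis, but the share of such enzymes among the 10035 genes was not computed. The measure says nothing of shared function or control. Among the 45 pairs of the 10 genes, the closest profiles were Nrcam with Cntn1 (0.110), Cadm4 with Mpdz (0.154) and Nfasc with Gldn (0.223).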

How the data were processed

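Gene counts of 6 sciatic nerve libraries, 3 cKO and 3 WT, were used as the authors deposited them. The submitters' processing notes name TopHat2 2.0.13, HTSeq and the build mm10; no label states the strand setting. Reads in no gene (12.1% to 14.3%) or in several (1.64% to 2.82%) stayed out of library sizes.

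The counts were filtered (filterByExpr, minimum count 10), scaled with TMM and tested with the quasi-likelihood test of edgeR 4.0.16 in R 4.3.3, with p-values adjusted by Benjamini-Hochberg over 14789 genes and called under 0.05. The SE is the log2 fold change over the root of F. Exon lengths are from GENCODE M21 and promoters from RefSeq. The fit was tested on simulated data. Alternatives used DESeq2 1.42.0, limma 3.58.1, other scalings and filters, covariates and left-out libraries.

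Named genes were the 10, up to 4 per list by p, Cntnap1, Cntnap2 and Epb4.1l3, the summed markers and the profiles most like each called gene. Cdh1 was named after its value was seen. Some genes that the rule names are not reported here. The 10 genes and the lists were chosen with earlier results of these data known.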

Additional observations from a re-analysis of the deposited data

How the results depend on the processing

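Over 17 alternatives, 169 values of the 10 genes were recomputed: 160 kept direction and call, 9 kept direction but lost the call, and 0 reversed. With the muscle level as a covariate 1 gene was called lower and 0 higher of the 10, and 2 lower and 0 higher of the 76 others. Leaving out 1 library gave 5 to 7 lower and 1 higher of the 10, and 9 to 17 lower and 1 to 5 higher of the 76. The 76 had 11 lower and 8 higher with total counts, and 22 lower and 8 higher with DESeq2. Over all genes DESeq2 called 1257 lower and 997 higher. Total counts moved the median of all genes up by 0.124 on the log2 scale, and calls there are to be read against it. With raw counts in place of counts per kb, the cKO minus WT difference in share was 5.91 points for Cadm1, 2.50 for Cadm2, -1.77 for Cadm3 and -6.65 for Cadm4. Without 1 library the Cadm3 share differed by -0.666 to 0.0734 points, above 0 without cKO 1. With the muscle covariate the log2 fold changes of Cntnap2 (-1.88), Ank1 (-0.18) and Epb4.1l3 (0.23) reversed, and the cause was not tested. Over all genes, 912 lower and 706 higher calls became 48 and 6 with that covariate, 606 and 1273 with total counts, and 459 and 276 without cKO 3. The labels state no pairing by replicate number. Deviations of same-numbered libraries correlated at -0.207, -0.122 and 0.0724, and those of differently numbered libraries at -0.100 to 0.222, which does not settle it. With a replicate block, edgeR called 643 genes lower and 461 higher, and 7 lower and 1 higher of the 10. Cntn2 was not tested under the filter of 50 counts in 3 libraries, and its depth of 7 to 28 counts limits what can be read of it.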

Other observations

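Of the 88 genes listed for the axon-glia unit, 12 were too low to be tested. For 8 of the 10 genes cKO 1 was the lowest cKO library, while Cadm4 was lowest in cKO 3 and Cntn2 in cKO 2. The share of all tested genes lowest in cKO 1 was not computed, so this count only describes the 10 genes.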
